A study of Homo sapiens with 3 samples.

Results

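Levels of the miR-34, miR-192, miR-194 and miR-215 families were described in MV4-11 cells. MV4-11 is an acute myeloid leukemia line with an internal tandem duplication of the kinase gene FLT3 and the fusion protein MLL-AF4. All 3 replicates carried the empty-vector (EV) form of a lentiviral CRISPR-Cas9 construct, were grown for 2 weeks after infection, and had their genotype given as WT. There was no untreated or other control group, so comparisons were made between miRNAs, between arms of a hairpin and between libraries. Nothing in the labels said whether the replicates came from separate infections or cultures, so the spread between them, and every p-value that rests on it, may be partly technical. The members were found by name. Of 7 hairpins sought, 6 had a row among the 661 hairpins listed: hsa-mir-34a, hsa-mir-34c, hsa-mir-192, hsa-mir-194-1, hsa-mir-194-2 and hsa-mir-215. Of their 12 mature arms sought, 7 were among the 783 mature names listed, in 8 of 851 rows. Neither hsa-mir-34b nor its arms had a row, and neither did miR-34c-3p, miR-192-3p and miR-215-3p. A row was listed only where at least 1 library reached 10 counts, so a miRNA with no row was given no level. Counts on mature rows were 12694823, 10991953 and 11682129 in replicates 1, 2 and 3. Replicate 1 stood apart from the others over all mature names, and values without it are given where they matter.

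A miRNA is cut from a hairpin in a longer transcript, and the strand from its 5′ side (5p) or its 3′ side (3p) is loaded into Argonaute. The seed, bases 2 to 8 of the mature strand, pairs with target mRNAs and largely sets which are repressed. miR-34 represses cell cycle and survival genes such as CDK6, MET and BCL2. miR-192, miR-194 and miR-215 come from clusters of neighbouring hairpins and are best known as abundant miRNAs of intestine, liver and kidney.

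The mature sequences that carry the results are shown to make clear which members share a seed, and capitals mark the seed. They were taken from RefSeq (GRCh38.p14), where 6 of the 7 listed mature names matched; miR-34c-5p is named only.
miR-34a-5p: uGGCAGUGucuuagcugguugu
miR-34a-3p: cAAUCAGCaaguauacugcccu
miR-192-5p: cUGACCUAugaauugacagcc
miR-215-5p: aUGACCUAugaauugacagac
miR-194-5p: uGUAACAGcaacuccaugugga
miR-194-3p: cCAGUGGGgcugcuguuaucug
miR-449a: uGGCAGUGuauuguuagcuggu
miR-192-5p and miR-215-5p share the seed UGACCUA and differ at 2 of 21 bases, C1A and C20A, with positions counted from the 5′ end and the base of miR-192-5p first. miR-34a-5p shares GGCAGUG with miR-449a, the only other listed RefSeq name with that seed, while miR-449b-5p has the seed but no row. The hairpin hsa-mir-34c also holds GGCAGUG on its 5′ side, but miR-34c-5p was not matched in RefSeq, so its seed was not read. No other listed RefSeq name had the seed of miR-192-5p and miR-215-5p or that of miR-194-5p.

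The genes lie at 4 loci, all on chromosomes 1 and 11. MIR34A is at chr1:9151668-9151777 on the minus strand, in an exon of the noncoding host gene MIR34AHG in GENCODE 29. MIR34C is at chr11:111513439-111513515 on the plus strand, 417 bases from MIR34B, and overlaps no other gene. The cluster on chromosome 11 holds MIR192 at chr11:64891137-64891246 and MIR194-2 at chr11:64891355-64891439, both on the minus strand, with 108 bases between them and both overlapping exons of MIR194-2HG. The cluster on chromosome 1 holds MIR215 at chr1:220117853-220117962 and MIR194-1 at chr1:220118157-220118241. Both lie on the minus strand, opposite an intron of IARS2, which encodes a mitochondrial isoleucyl-tRNA synthetase. Each cluster therefore pairs 1 copy of mir-194 with 1 hairpin of the miR-192 and miR-215 seed family.

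miR-34a-5p was the highest member. Its level in FPKM, reads scaled to the length of the feature and to all reads counted in the library, was 12215 in replicate 1, 23761 in replicate 2 and 28894 in replicate 3, from 3257, 5486 and 7090 counts. The mean of 21623 ± 8543 (SD, n = 3) ranked 104 of 783 mature names. Replicate 1 was the low library. Its hairpin hsa-mir-34a had 2371, 4631 and 5635 FPKM, in the same order. The passenger arm miR-34a-3p had 63.8, 273 and 330 FPKM, and was likewise low in replicate 1. miR-34c-5p, the product of the other miR-34 locus, had 233, 203 and 280 FPKM, from 65, 49 and 72 counts. Its mean of 238 ± 39.1 FPKM (SD, n = 3) ranked 408, close to the median of 270 over all mature names. miR-34a-5p exceeded it 52.5-fold, 117-fold and 103-fold in replicates 1, 2 and 3, a mean log2 ratio of 6.43 ± 0.62 (SD, n = 3). Of the summed FPKM of both, miR-34a-5p made up 98.1% to 99.2% in the 3 libraries. miR-449a, the seed mate known from ciliated epithelium, had 32, 44 and 50 counts and a mean of 171 ± 45.0 FPKM (SD, n = 3). The miR-34 family was thus read almost wholly as miR-34a-5p.

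miR-192-5p was the next member, and miR-215-5p, with the same seed, was far lower. miR-192-5p had 17362, 11788 and 9850 FPKM in replicates 1, 2 and 3, from 4409, 2592 and 2302 counts. Its mean was 13000 ± 3900 FPKM (SD, n = 3), rank 123 of 783. Replicate 1 was the high library, the opposite of miR-34a-5p. miR-215-5p had 224, 277 and 295 FPKM, from 57, 61 and 69 counts, and a mean of 266 ± 36.8 (SD, n = 3), rank 395. miR-192-5p exceeded miR-215-5p 77.4-fold, 42.5-fold and 33.4-fold, a mean log2 ratio of 5.58 ± 0.62 (SD, n = 3), and made up 98.7%, 97.7% and 97.1% of their summed FPKM. Ratios between different miRNAs are given as values with no test. The 2 miRNAs differ at 2 bases, and whether reads of one were counted for the other was not tested.

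miR-194-5p, which both clusters encode, lay between miR-192-5p and miR-215-5p. The sum of its rows was 919, 4084 and 5269 FPKM in replicates 1, 2 and 3, from 245, 943 and 1293 counts. The mean of 3424 ± 2249 FPKM (SD, n = 3) ranked 198 of 783. Replicate 1 was far below the other libraries, and the mean without it was 4677 FPKM. miR-194-3p, cut from hsa-mir-194-2 alone in RefSeq, had only 7, 10 and 13 counts, and its mean of 40.8 ± 13.5 FPKM (SD, n = 3) ranked 701.

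**Figure D1:**
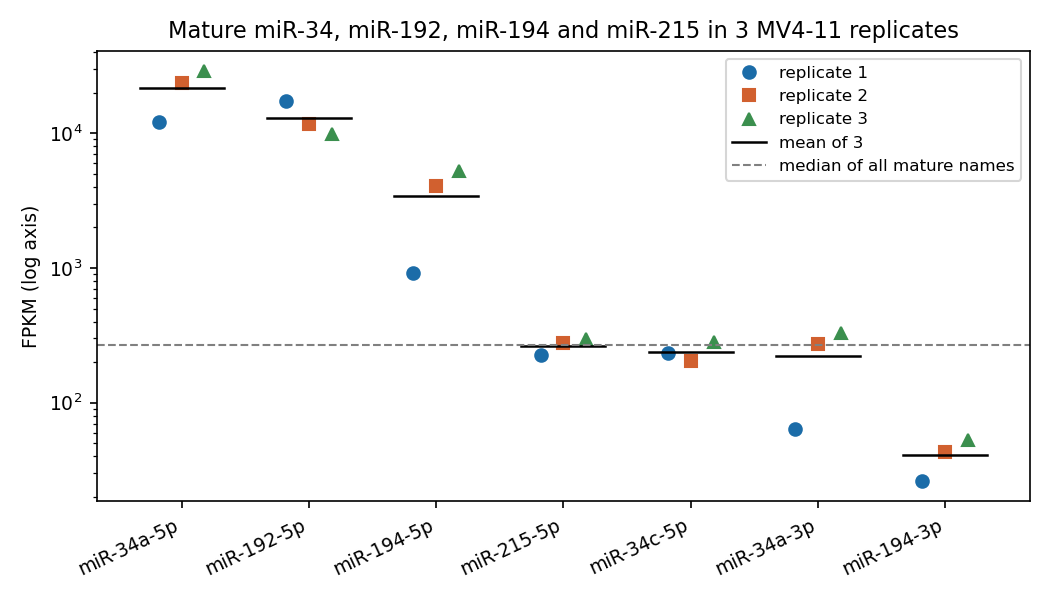
Level of each of the 7 mature members in FPKM on a log axis, with a point for each of 3 replicates, a short line for their mean and a dashed line at the median of all 783 mature names (270 FPKM). miR-34a-5p, miR-192-5p and miR-194-5p lie above the line in all 3 replicates, miR-194-3p lies below it in all 3, and replicate 1 is low for miR-194-5p but high for miR-192-5p.

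The order of the levels was only partly resolved. miR-34a-5p was above miR-192-5p in replicates 2 and 3, by 2.02-fold and 2.93-fold, but below it in replicate 1, at 0.704 of its level. miR-192-5p was above miR-194-5p in 3 of 3 libraries, though by 18.9-fold in replicate 1 against 2.89-fold and 1.87-fold in the others. The means of miR-215-5p, miR-34c-5p and miR-34a-3p (222 ± 140 FPKM, SD, n = 3) lay closer together than the larger SD within each neighbouring pair. miR-194-3p was the lowest in all 3 libraries.

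The 2 clusters were compared hairpin by hairpin, to learn whether neighbours made from one stretch of genome had like levels. hsa-mir-192 had 3182, 2159 and 1805 FPKM in replicates 1, 2 and 3, and its neighbour hsa-mir-194-2 had 144, 674 and 889. hsa-mir-192 was the higher in 3 of 3 libraries, but the ratio was 22.1-fold in replicate 1 and only 3.20-fold and 2.03-fold in replicates 2 and 3. The mean log2 ratio of 2.39 ± 1.83 (SD, n = 3) was 1.35 without replicate 1. In counts, not scaled to the length of the hairpin, the mean log2 ratio over all 3 libraries was 2.76. With reads as assigned, the order was turned on chromosome 1. hsa-mir-215 had 41.1, 51.6 and 55.6 FPKM, and hsa-mir-194-1 had 95.4, 355 and 439. hsa-mir-215 was the lower in 3 of 3 libraries, with a mean log2 ratio to hsa-mir-194-1 of -2.33 ± 0.97 (SD, n = 3), and -2.88 without replicate 1. In counts the mean over all 3 libraries was -1.95.

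Summed over their hairpins, the cluster on chromosome 11 was above that on chromosome 1 in all 3 libraries. The sums were 2951 ± 332 FPKM on chromosome 11 and 346 ± 187 on chromosome 1 (SD, n = 3). The ratio was 24.4-fold, 6.96-fold and 5.45-fold in replicates 1, 2 and 3, a mean log2 of 3.28 ± 1.16 (SD, n = 3), and 2.62 without replicate 1. Across the clusters, hsa-mir-192 exceeded hsa-mir-215 by 77.4-fold, 41.9-fold and 32.5-fold. The mir-194 copies were much closer, with hsa-mir-194-2 above hsa-mir-194-1 by 1.51-fold, 1.90-fold and 2.03-fold. Most reads of these copies are of a mature strand that both encode, so the last ratio describes how reads were assigned as well as the loci. The same holds for the ratios of hsa-mir-192 and hsa-mir-215 to their mir-194 neighbours, and for the cluster sums.

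**Figure D2:**
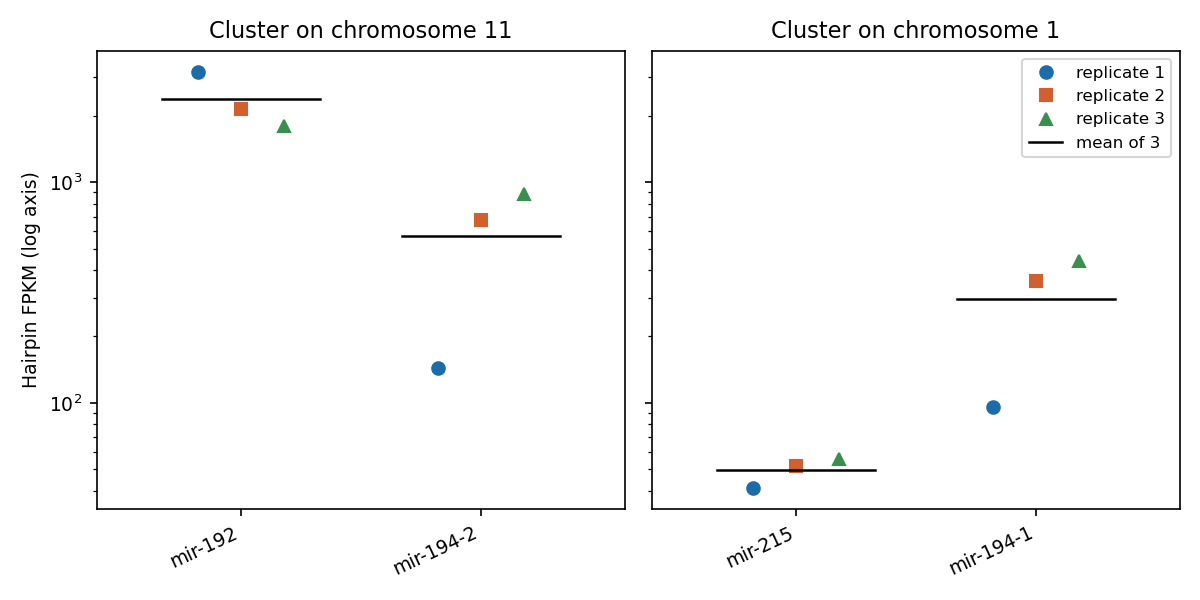
Hairpin levels in FPKM on a log axis for the cluster of mir-192 with mir-194-2 on chromosome 11 and that of mir-215 with mir-194-1 on chromosome 1, with a point for each of 3 replicates and a short line for their mean. mir-192 is the higher hairpin of its cluster and mir-215 the lower of its own in all 3 replicates, and both mir-194 copies are lowest in replicate 1. Most reads of the mir-194 copies are of a strand that both encode, so their levels depend on how reads were assigned.

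The rows of miR-194-5p were unequal. The mature table lists this strand in 2 rows and names no hairpin for them. The lower row, with 102, 329 and 432 counts, equalled the whole count of hsa-mir-194-1 in each library and stood next to miR-215-5p in the table. The higher row, with 143, 614 and 861 counts, stood next to miR-192-5p, so it was taken as that of hsa-mir-194-2. The stretch of each hairpin around the mature strand is shown because only bases outside it can tell the copies apart; capitals mark the 22 bases of miR-194-5p, and 4 bases are shown on each side.
MIR194-1: caagUGUAACAGCAACUCCAUGUGGAcugu
MIR194-2: ccccUGUAACAGCAACUCCAUGUGGAagug
All 22 mature bases are the same, and 1 of the 8 flanking bases is. The whole hairpins, 85 bases each, had 66.3% identity over their global alignment, and GC content was 41.2% in MIR194-1 and 62.4% in MIR194-2. A read of the mature strand alone can come from either.

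Of the counts of both rows, the higher row held 58.4% in replicate 1, with a Wilson 95% interval of 52.1 to 64.4%. It held 65.1% in replicate 2, with bounds of 62.0 and 68.1%, and 66.6% in replicate 3, with bounds of 64.0 and 69.1%. The mean was 63.4% ± 4.38 (SD, n = 3). All 3 intervals lay above an equal share, and that of replicate 1 overlapped both others. Without replicate 1 the mean was 65.9%. Intervals cover counting error only, since PCR copies were not marked. As background, 44 mature names had exactly 2 rows, and 8 of them, 18.2%, had the same row at 52% or more in every library. miR-194-5p was among these 8, and its mean share was the second highest of the 44, after miR-7641 with 93.5%. The median share of the higher row over the 44 was 51.7%, and since that row was taken as the one with more counts, a share just above 50% follows from the choice. miR-194-5p was also among the 6 of 29 names that were unequal where at least 100 counts were required in every library. How the authors placed reads that match several loci is not given in the sources used here, and its part in the unequal rows was not tested.

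**Figure D3:**
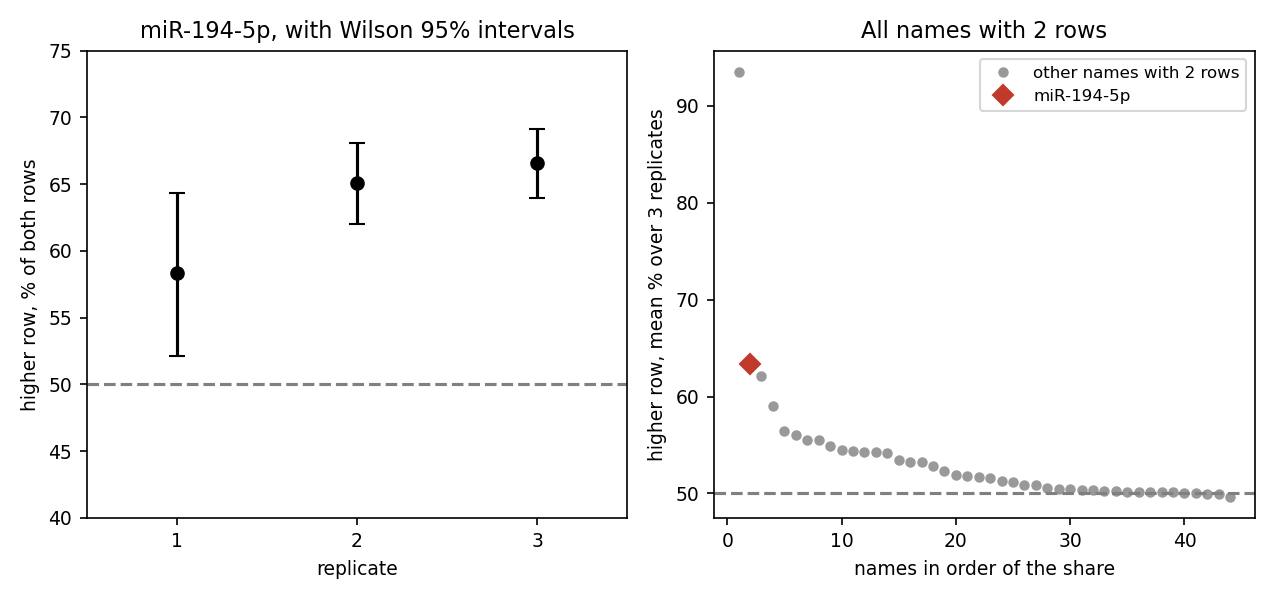
Left, the share of the higher row in the counts of both rows of miR-194-5p for each replicate, with Wilson 95% intervals and a dashed line at an equal share. Right, the mean share over 3 replicates for all 44 names with 2 rows, in order of the share, with miR-194-5p (63.4%) as the diamond; the median of the 44 is 51.7%.

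The 5p arm prevailed wherever both arms could be compared. The arms of miR-34a had 3257, 5486 and 7090 counts for 5p and 17, 63 and 81 for 3p, a ratio of 192-fold, 87.1-fold and 87.5-fold. The fitted log2 ratio was 6.78 ± 0.40 (SE; edgeR quasi-likelihood adjusted p = 3.31e-05 over 195 pairs), with 5p higher in 3 of 3 libraries. For miR-194, with the rows of 5p summed, it was 6.17 ± 0.46 (SE; edgeR adjusted p = 7.63e-05), again with 5p higher in 3 of 3. That sum sets 2 hairpins against 1, and with the higher row alone the log2 ratio was 5.52 and with the lower row alone 4.70. Both pairs passed the threshold of adjusted p under 0.05 and an absolute log2 ratio of at least 1 toward 5p, as did 79 of all 195 pairs, 40.5%. Among the 195 the ratio of miR-34a ranked 14 and that of miR-194, with its rows summed, ranked 21 toward 5p. The median of the 79 pairs called toward 5p was 4.24.

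Where 1 arm had no row, the hairpin counts bounded the other. hsa-mir-192 had 4413, 2595 and 2306 counts, of which 4, 3 and 4 lay outside the row of miR-192-5p. For hsa-mir-215 these were 0, 1 and 2 of 57, 62 and 71 counts, and for hsa-mir-34c 0, 3 and 5 of 65, 52 and 77. Reads of miR-192-3p, miR-215-3p and miR-34c-3p could be at most these, if both tables counted the same reads. hsa-mir-194-1 had 0 of 863 counts outside the row taken as its 5p row. If 0 counts seen are taken to allow up to 3, the share could be up to 0.348%. In hsa-mir-34a, 56 of 16050 counts lay outside both arms. The listed arms held from 95.9% of the hairpin counts in hsa-mir-34c to 100% in hsa-mir-194-1, against a median of 99.2% over 535 hairpins with arms of the same name.

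**Figure D4:**
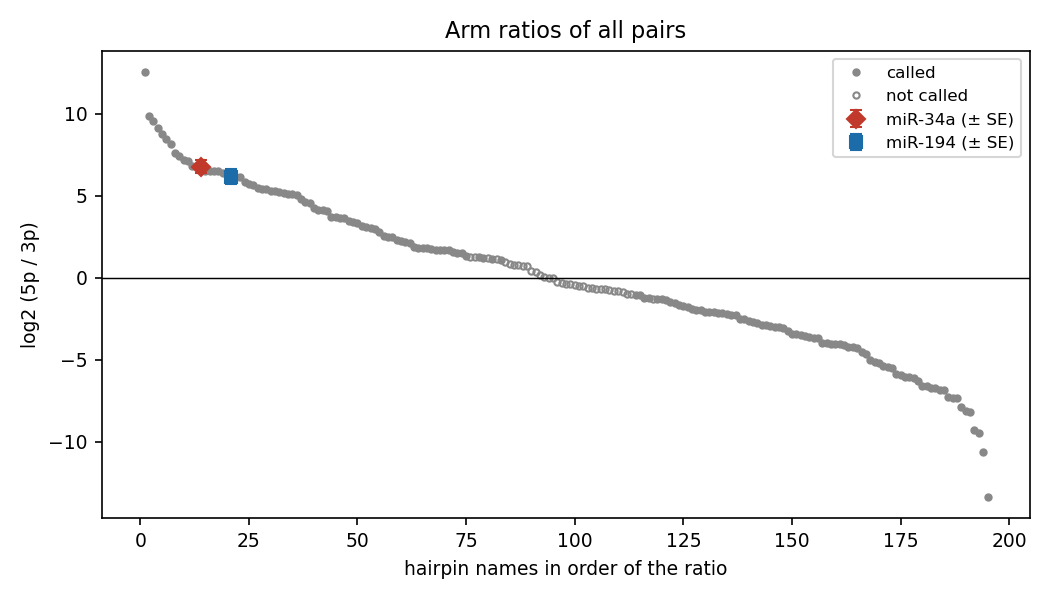
Fitted log2 ratio of 5p to 3p for each of the 195 hairpin names with both arms above 0 in every library, in order of the ratio. Filled points passed the threshold, and bars on miR-34a and miR-194 are standard errors. miR-34a (6.78) and miR-194 (6.17) lie among the ratios farthest toward 5p. The value of miR-194 sums the 5p rows of 2 hairpins, and with the higher row alone it was 5.52.

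The members did not vary together between libraries. Replicate 1 stood apart from the others in the whole series. Over the 358 mature names with a mean of at least 100 counts, the median log2 difference from replicate 1 in shares of mature counts was 0.47 for replicate 2 and 0.53 for replicate 3. After median-of-ratios scaling these medians were -0.00290 and -0.03, and the log2 differences that follow are on that scale. miR-194-5p was 1.68 higher in replicate 2 than in replicate 1 and 1.96 higher in replicate 3, above 98.0% and 98.3% of the 358 names. miR-192-5p stood at -1.03 and -1.38 on the same measure, above only 5.87% and 6.15% of names. miR-194-5p and miR-192-5p thus lay near opposite ends of the range, though miR-194-5p sums the copies of both clusters. miR-215-5p, from the other cluster, was above 43.0% and 42.7% of names. Scaling moves all names by the same amount, so these percentages do not depend on it. miR-34a-5p stood at 0.49 and 0.68, above 73.7% and 78.2%, and its sparse 3p arm at 1.62 and 1.81. miR-34c-5p stood at -0.67 and -0.30, but in unscaled shares of counts at -0.20 and 0.27, so that its direction in replicate 3 turned with the scaling. miR-215-5p stood at -0.17 and -0.17, and turned in both libraries, to 0.31 and 0.40, in unscaled shares. Replicates 2 and 3 were close, and the log2 ratio of replicate 3 to replicate 2 was 0.28 for miR-194-5p, -0.35 for miR-192-5p and 0.19 for miR-34a-5p.

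The coefficient of variation over 3 replicates after scaling was 55.9% for miR-194-5p and 52.8% for miR-192-5p, against a median of 22.2% over the 358 names. It was 23.0% for miR-34a-5p. On the deposited FPKM it was 65.7% for miR-194-5p, 30.0% for miR-192-5p and 39.5% for miR-34a-5p, against a median of 26.9%. miR-194-5p was thus above 93.9% of the names after scaling and 97.2% before it, while miR-192-5p was above 89.7% after scaling but only 54.5% before it. Counting alone would give 3.48%, 1.80% and 1.38%. For miR-215-5p the coefficient was 6.82% scaled and 13.9% unscaled, and for miR-34c-5p 22.9% and 16.4%, where counting alone would give 12.7% for each. In unscaled shares of mature counts, the Wilson 95% intervals of the highest and lowest library did not overlap for 4 of 7 members, which were both arms of miR-34a, miR-192-5p and miR-194-5p. The same held for 446 of all 783 names, 57%, so the members did not stand out. Without replicate 1 it held for 3 of the 7, with miR-34a-3p lost, and for 27.1% of all names.

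**Figure D5:**
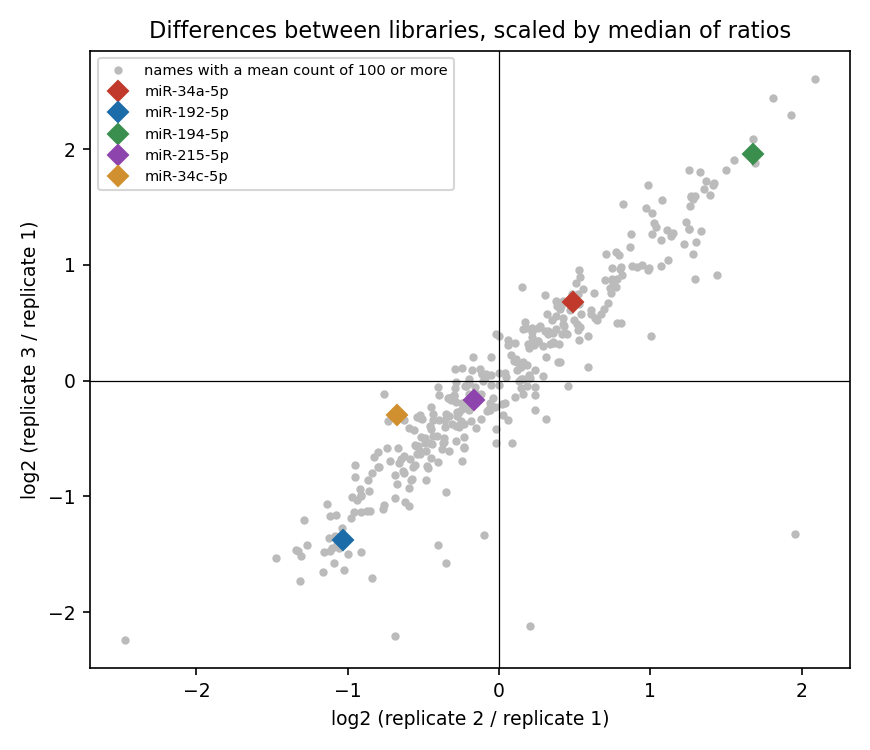
Log2 ratio of replicate 2 to replicate 1 (horizontal) against that of replicate 3 to replicate 1 (vertical), after median-of-ratios scaling, for 358 mature names (grey) and 5 members (diamonds). Both axes share replicate 1, so the diagonal is not a result; miR-194-5p lies near the upper right end, miR-192-5p toward the lower left and miR-215-5p near 0.

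The mature names nearest to each main member were found by the root mean square difference of log2(FPKM + 1) over the 3 libraries. Nearest to miR-34a-5p were miR-652-3p at 0.13, miR-124-5p at 0.16 and miR-199b-3p at 0.21. Nearest to miR-192-5p were miR-7974 at 0.05, miR-143-3p at 0.13 and miR-99b-5p at 0.31. All 3 of these, like miR-192-5p, were highest in replicate 1, at 18285, 16964 and 12548.5 FPKM, against 9697, 11425 and 11818 in replicate 3. Nearest to miR-194-5p were miR-532-3p at 0.21, miR-20b-5p at 0.30 and miR-7-1-3p at 0.36. All of these were lowest in replicate 1, at 1031, 666 and 1324 FPKM. Nearest to miR-215-5p were miR-1227-3p at 0.12, miR-3913-5p at 0.20 and miR-3173-5p at 0.22. With 3 libraries this measure reflects mainly the level. The names were picked by closeness in these same libraries, so a shared order of the replicates follows in part from the choice.

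Because miR-192, miR-194 and miR-215 are best known from epithelium and liver, markers of other cells were read beside them. All 7 white blood cell markers were listed, and their summed level was 1629690 to 2826150 FPKM over the libraries, from miR-155-5p with a mean of 1100895 down to miR-150-5p with 53.2. Of 6 epithelial markers 3 were listed, with a summed level of 7816 to 11128 FPKM, and miR-205-5p, miR-203a and miR-375 had no row. miR-200c-3p had 4167, 7314 and 7656 FPKM and miR-141-3p had 105, 282 and 200 in replicates 1, 2 and 3. Unscaled, both were thus lowest in replicate 1, where miR-192-5p was highest and miR-194-5p lowest. Low unscaled values there were common, with median log2 differences from replicate 1 of 0.47 and 0.53 in replicates 2 and 3 over 358 names. miR-200b-3p was nearly level on this unscaled measure, at 3544, 3266 and 3272 FPKM. After median-of-ratios scaling its log2 differences from replicate 1 were -0.59 in replicate 2 and -0.68 in replicate 3, so it was then highest in replicate 1. Those of miR-200c-3p were 0.34 and 0.31. The liver marker miR-122-5p had 308, 204 and 183 FPKM, from 82, 47 and 45 counts, and was highest in replicate 1. Over all markers of other cell types, which include those of red blood cells, 14 of 18 were listed, and the muscle marker miR-206 was the remaining name with no row. Their summed level was 397119 to 515952 FPKM, most of it from the nerve marker miR-9-5p, with 340814 ± 29486 (SD, n = 3). miR-9 is also known to be high in leukemia with MLL fusions, and which cells the sum came from was not tested. The lowest was the red blood cell marker miR-451a, with 71.6 ± 33.3 FPKM (SD, n = 3). The other nerve marker, miR-124-3p, had a mean of 55618 FPKM. All 3 stroma markers were listed, with a summed level of 46798.5 to 80120.2 FPKM. Their means were 49698 for miR-199a-3p, 13639 for miR-143-3p and 1088 for miR-145-5p. miR-143-3p, also among the names nearest to miR-192-5p, was highest in replicate 1, at 16964, 12529 and 11425 FPKM. The other stroma markers were lowest there, miR-199a-3p at 29144, 52672 and 67279 and miR-145-5p at 691, 1158 and 1416. Median-of-ratios scaling left these directions unchanged. Whether RNA of other cells had a part in the members' levels was not tested.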

How the data were processed

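Small RNA of 3 MV4-11 EV replicates was sequenced from NEB libraries on an Illumina HiSeq instrument. The authors counted reads over miRBase release 21, and the submitters' processing notes name Novoalign 2.08.03 and the builds hg19 and mm10, with no role stated; alignment settings are not given in the sources used here. The deposited tables give read counts per mature row and per hairpin, not normalized, and FPKM, which the authors computed from them. In adapter-ligation libraries the yield depends on each RNA's ends, so levels of different miRNAs are not molar ratios. Counts divided by FPKM returned feature lengths 1 base shorter than RefSeq for 671 of 679 matched mature names. Mature counts totalled 10991953 to 12694823 per library, and Wilson 95% intervals cover counting error only.

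Rows of a repeated name were summed. For the arms, edgeR 4.0.16 in R 4.3.3 fitted quasi-likelihood models with the library as a block and library totals as sizes, over all 195 names with both arms above 0 in every library. Calls needed a Benjamini-Hochberg adjusted p under 0.05 and an absolute log2 ratio of at least 1, and the procedure was tested on simulated data. Alternatives used limma 3.58.1, DESeq2 1.42.0, TMM or median-of-ratios scaling, a minimum of 100 counts, other treatments of repeated rows and lengths, and each replicate left out. Named miRNAs were the members, their seed mates, the 3 nearest names by level, and listed cell type markers, with the highest and lowest of the white blood cell list and of all other markers, and all epithelial and unlisted names. miR-7641, the liver marker miR-122-5p, the nerve marker miR-124-3p and the stroma markers were named after their values were seen. Other lists of hairpins fixed with the design are not reported here. The members and lists were chosen with earlier results of these data known. Python 3.11.15 with biopython 1.88, pandas 2.3.3, scipy 1.17.1 and numpy 2.4.6 gave the remaining values, and matplotlib 3.10.9 the figures.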

Additional observations from a re-analysis of the deposited data

How the results depend on the processing

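Of 174 values recomputed under an alternative for 25 results, 171 were classed as the same and 0 as reversed. The class meant a kept direction and call or a value within the spread that applied, but some results had no spread. With a replicate left out, the 171 include 27.3% of names with 2 rows unequal, against 18.2%. They also include 365 names with intervals that did not overlap, against 446. The share of names with 2 rows called unequal was 18.2%, and it fell to 9.09% with a threshold of 55% and to 4.55% with 60%, by construction; with a replicate left out it ran from 22.7% to 27.3%. The names whose library intervals did not overlap numbered 446, and 212 to 404 with a replicate left out, the lowest without replicate 1. Leaving out a replicate cannot move a mean by as much as its SD, so those repeats say little of stability. The mean log2 ratio of hsa-mir-192 to hsa-mir-194-2 ran from 1.35 to 3.07 with a replicate left out, and the mean of miR-194-5p from 2502 to 4677 FPKM. The arm calls of miR-34a and miR-194 held under every alternative run, with adjusted p-values from 6.03e-67 to 0.000829 for miR-34a and from 4.25e-48 to 0.00199 for miR-194. The smallest came without replicate 1, with 1 residual degree of freedom per pair. Pairs called numbered 147 to 162 across the other alternatives and 141 to 168 with a replicate left out. Lengths 1 base longer, chosen after the data were seen, lowered the mean of miR-34a-5p from 21623 to 20640 FPKM. No paired analysis was possible because there is 1 group, with no other group to pair it with; the arms were compared within libraries, with the library as a block. At this depth miR-194-3p, with 7 to 13 counts a library, carries wide counting intervals.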
